A study of Mus musculus with 12 samples.

Results

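The CX3CR1+ and the CD27hi CX3CR1- subsets of splenic CD8+ T cells were compared by their TCRβ rearrangements, using the 3 CX3CR1+ and the 3 CD27hi CX3CR1- libraries of a series of 12. All cells came from female C57BL/6 mice bearing MC38, a colon adenocarcinoma line grown under the skin, and all mice had received anti-CTLA-4 and anti-PD-L1 antibodies for 2 weeks, so that no untreated library entered the comparison. Splenocytes positive for CD45, CD3 and CD8 had been sorted on CD27 and CX3CR1, 1 library of each subset per experiment, and A, B and C stand here for the experiment codes of the sample titles, sorted. The labels write the gates as CX3CR1 high and as CD27 high with CX3CR1 low, where the study writes positive and negative. The sources do not say how many mice of an experiment were pooled into a library, and p-values here rest on the spread between the 3 experiments. Those from edgeR's test also borrow spread from the other features tested, so their size does not come from the 3 experiments alone. Sequencing of genomic DNA carries no expression values, so neither surface marker could be checked in the files.

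CX3CR1 is a chemokine receptor that marks cytotoxic effector T cells, and CD27 is a costimulatory receptor that naive and central memory T cells keep. Each T cell assembles its TCRβ gene by joining a V, a D and a J segment, with nucleotides trimmed and added without a template at the joints (N insertions). The joined stretch encodes the complementarity-determining region 3 (CDR3), the loop that contacts the peptide. All descendants of a T cell carry the same rearrangement, so the templates counted for it measure the size of a clone. Rearrangements that are out of frame encode no receptor and ride along in cells whose other allele is functional.

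The CX3CR1+ libraries held 7153, 5591 and 11455 unique productive rearrangements (in frame, without a stop codon) in experiments A, B and C, and the CD27hi CX3CR1- libraries held 42606, 38014 and 54639. Productive templates ranged from 49116 to 113660 per library, so that 3 templates, the detection limit used here, stood for 0.00264% to 0.00611% of a library. Drawn down to 49116 templates, the CX3CR1+ libraries kept 6642, 5475 and 6839 unique rearrangements against 39608, 38014 and 40741. The count was lower in CX3CR1+ in 3 of 3 experiments and dropped by 33136 ± 697 (SD of the paired differences, n = 3, exact sign-flip permutation test, two-sided p = 0.25, the smallest p that 3 pairs allow). A rearrangement was counted 7.80, 9.12 and 9.92 times on average in the CX3CR1+ libraries and 1.27, 1.29 and 1.31 times in the CD27hi CX3CR1- libraries.

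The largest clones are printed first because the template-weighted results turn on them. In B and in C the same clone also ranked first in both subsets. Each line is the 87-base rearrangement as deposited, 5′ to 3′, with the bases of the CDR3 in capitals. The read stops 1 codon before the end of the CDR3.
CX3CR1+ A, rank 1: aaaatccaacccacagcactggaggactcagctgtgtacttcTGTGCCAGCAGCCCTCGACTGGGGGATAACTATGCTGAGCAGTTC
CX3CR1+ A, rank 2 (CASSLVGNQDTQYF): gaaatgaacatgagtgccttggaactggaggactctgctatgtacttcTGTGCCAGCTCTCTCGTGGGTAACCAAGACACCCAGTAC
CX3CR1+ A, rank 4, and CD27hi CX3CR1- A, rank 1 (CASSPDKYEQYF): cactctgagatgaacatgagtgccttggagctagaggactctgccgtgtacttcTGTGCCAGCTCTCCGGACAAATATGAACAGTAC
CX3CR1+ B, rank 1, and CD27hi CX3CR1- B, rank 1 (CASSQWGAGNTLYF): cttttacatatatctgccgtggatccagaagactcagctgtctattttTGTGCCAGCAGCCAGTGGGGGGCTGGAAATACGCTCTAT
CX3CR1+ B, rank 2: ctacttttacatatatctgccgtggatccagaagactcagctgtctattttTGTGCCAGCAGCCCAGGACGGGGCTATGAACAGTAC
CX3CR1+ C, rank 1, and CD27hi CX3CR1- C, rank 1 (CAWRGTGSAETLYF): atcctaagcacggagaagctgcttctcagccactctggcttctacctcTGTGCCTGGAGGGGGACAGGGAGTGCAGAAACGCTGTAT
CX3CR1+ C, rank 2 (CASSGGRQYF): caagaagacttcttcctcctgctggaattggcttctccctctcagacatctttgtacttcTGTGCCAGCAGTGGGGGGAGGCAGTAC
CX3CR1+ C, rank 3 (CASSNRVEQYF): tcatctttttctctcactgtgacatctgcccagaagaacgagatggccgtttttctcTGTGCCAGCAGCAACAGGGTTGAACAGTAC

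In experiments B and C the most abundant clone was the same in both subsets. The clone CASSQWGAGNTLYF (TCRBV05-01, TCRBJ01-03) held 8948 templates, 17.5% of CX3CR1+ B (Wilson 95% interval 17.2% to 17.9%), and 93 templates, 0.189%, of CD27hi CX3CR1- B. The clone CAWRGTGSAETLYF (TCRBV31-01, TCRBJ02-03) held 7191 templates, 6.33% of CX3CR1+ C, and 27 templates, 0.0377%, of CD27hi CX3CR1- C. Both ranked first in each subset of their experiment while differing 92.7-fold and 168-fold in share. In experiment A the first clone of CD27hi CX3CR1-, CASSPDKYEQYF with 26 templates, ranked 4 in CX3CR1+ with 1019, and the first clone of CX3CR1+ (TCRBV03-01, TCRBJ02-01, 2356 templates) ranked 11 in CD27hi CX3CR1- with 11 templates.

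The second clone of CX3CR1+ C, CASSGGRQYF, used TCRBV13-01, and the files name no J gene for it. Its 3439 templates made up most of the 3.12% of CX3CR1+ C templates without a J name, against at most 0.369% in each of the other 5 libraries. The clone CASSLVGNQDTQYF printed above was found in all 3 experiments and held a different place in each. In A it ranked 2 in CX3CR1+ and 3 in CD27hi CX3CR1-, while in B it ranked 85 in CX3CR1+ (87 templates, 0.171%) and 2 in CD27hi CX3CR1- (19 templates, 0.0387%). These ranks are of 1 nucleotide rearrangement. Other rearrangements encode the same CDR3, and together they held 2.48%, 2.38% and 2.27% of CX3CR1+ templates in A, B and C. In CD27hi CX3CR1- they held 0.0593%, 0.0672% and 0.0279%. The clone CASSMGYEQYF (TCRBV19-01, TCRBJ02-07, without N insertions) was the single member of the 5 largest clones of any CD27hi CX3CR1- library with the higher share there, at 14 templates in CD27hi CX3CR1- C and 4 in CX3CR1+ C (5.56-fold). The 5 largest clones of every one of the 6 libraries were found in the other subset of the same experiment. The 15 CX3CR1+ clones among them had between 3 and 93 templates in CD27hi CX3CR1-.

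Clone sharing between the subsets was concentrated in the largest CX3CR1+ clones. A clone was called shared when the same nucleotide rearrangement with the same V and J call was found in both libraries of an experiment. There were 639, 546 and 791 shared clones in A, B and C, which were 8.93%, 9.77% and 6.91% of unique CX3CR1+ rearrangements and 1.5%, 1.44% and 1.45% of unique CD27hi CX3CR1- rearrangements. They held 54.9%, 62.8% and 55.1% of CX3CR1+ templates and 2.48%, 2.34% and 2.17% of CD27hi CX3CR1- templates (difference 55.2 ± 4.51 percentage points, SD, higher in 3 of 3 experiments, exact sign-flip permutation test, two-sided p = 0.25, the smallest possible). Paired across different experiments, the same 2 subsets shared 142 to 263 clones, holding 3.06% to 7.12% of CX3CR1+ templates.

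The chance of finding a CX3CR1+ clone in the CD27hi CX3CR1- library went up with its size in every experiment. Of clones with 1 template, 4.15%, 4.42% and 3.49% were found in A, B and C. Of clones with 100 templates or more, 61 of 88 (69.3%), 57 of 76 (75.0%) and 103 of 163 (63.2%) were found. The Wilson 95% intervals of these size classes did not overlap in any experiment. Counting error alone is covered by these intervals, since PCR products without molecular tags are not independent molecules.

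**Figure D1:**
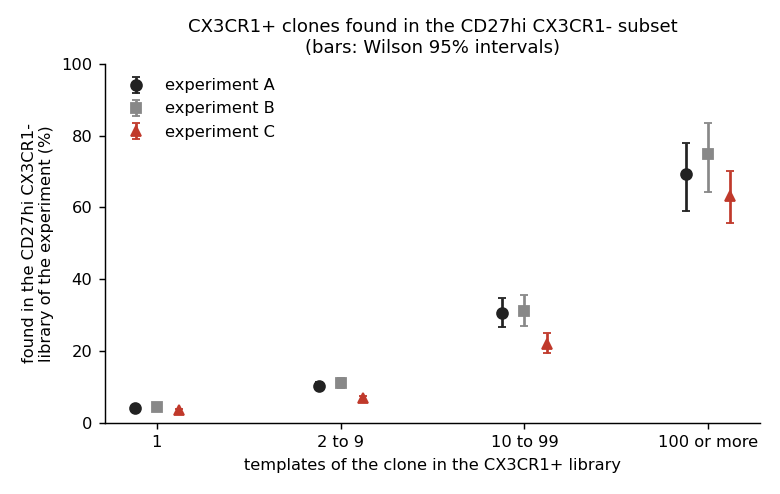
Percent of CX3CR1+ clones found in the CD27hi CX3CR1- library of the same experiment, on the vertical axis, by the clone's templates in the CX3CR1+ library, with Wilson 95% intervals as bars. The points go up from between 3.49% and 4.42% at 1 template to between 63.2% and 75.0% at 100 or more templates.

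Most clones at the top of CX3CR1+ were therefore found at a low level in the CD27hi CX3CR1- libraries. The study gives the purity of the sorted cells as a lower bound only. Templates of CX3CR1+ cells carried over in the sort cannot be told apart here from those of CD27hi CX3CR1- cells, and this was not tested. Of the 100 largest CX3CR1+ clones, 68 were found in the CD27hi CX3CR1- library of the same experiment in each of A, B and C, against 3 to 7 in that of another experiment. Of these 100, 25, 15 and 22 were also among the 100 largest of CD27hi CX3CR1-. In the other direction, 45, 35 and 43 of the 100 largest CD27hi CX3CR1- clones were found in CX3CR1+ of the same experiment and 7 to 10 in that of another.

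Clones of 100 templates or more in CX3CR1+ had the higher share there by the choice itself. The largest CD27hi CX3CR1- clones had 26, 93 and 27 templates in A, B and C. Of the chosen clones, 61, 57 and 103 were found in CD27hi CX3CR1-, and folds are given for those with over 3 templates there. The CX3CR1+ share was 7.50-fold to 207-fold higher in A (26 clones, median 39.9), 16.7-fold to 229-fold in B (23 clones, median 47.2) and 9.99-fold to 310-fold in C (39 clones, median 50.8). The rest of those found were at or below the 3-template limit. Another 27, 19 and 60 clones of 100 templates or more were not found in CD27hi CX3CR1-. The largest of those had 856, 329 and 1081 templates, which is at least 276-fold, 106-fold and 227-fold above the 3-template limit of the CD27hi CX3CR1- library. Ranks over the large clones, those not found included, went together loosely, with Spearman correlations of 0.413, 0.495 and 0.364 across 88, 76 and 163 clones. Clones of 1 library share its depth and are not replicates.

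Many shared clones were small. Of the 639, 546 and 791, 125, 104 and 157 had a single template in both libraries, where the order of the shares is set by library depth. With these included, 215, 182 and 310 shared clones had the higher share in CD27hi CX3CR1-. The median shared clone had 4 templates in CX3CR1+ and 1 template in CD27hi CX3CR1- in each experiment.

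**Figure D2:**
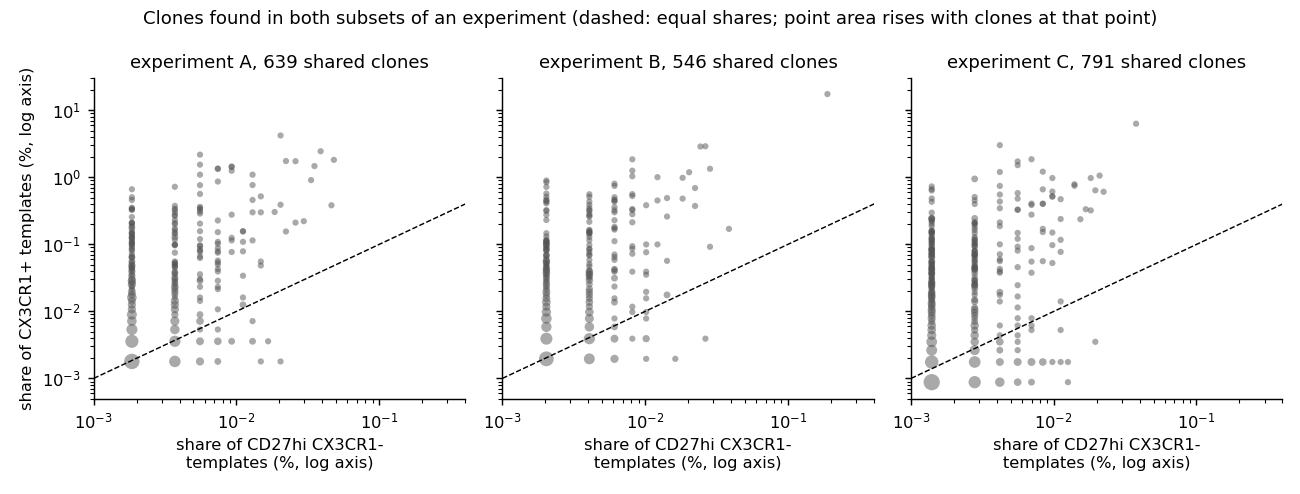
Share of each shared clone in the CX3CR1+ library (vertical axis, percent, log scale) against its share in the CD27hi CX3CR1- library of the same experiment (horizontal axis, percent, log scale), 1 panel per experiment with 639, 546 and 791 clones. The dashed line marks equal shares, and the largest clones lie far above it, up to 17.5% against 0.189% in experiment B.

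N insertions separated the clones shared within an experiment from those shared between experiments. CX3CR1+ clones found in CD27hi CX3CR1- of another experiment carried 1.25, 1.23 and 1.09 N nucleotides on average, and 39.0%, 36.4% and 39.2% of them carried none. Clones found in CD27hi CX3CR1- of their own experiment alone carried 3.31, 3.31 and 3.11, and CX3CR1+ clones found in neither carried 3.57, 3.62 and 3.65. Rearrangements without N insertions are the kind that different animals can form independently. The clones shared with another experiment held 5.02% to 9.02% of CX3CR1+ templates, while those shared within the experiment alone held 47.9% to 59.5%.

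V gene use by unique rearrangement, which counts each clone once, differed by small amounts. Of 24 V genes tested with edgeR's quasi-likelihood test, with the experiment as a block and Benjamini-Hochberg adjustment, 7 (29.2%) passed an adjusted p of 0.05, with 3 higher and 4 lower in CX3CR1+. The groups did not overlap for 8 of the 24, 6 of them among the 7. The V genes lie on mouse chromosome 6. TCRBV19-01 (Trbv19, chr6:41178589-41179048, coordinates here in GRCm38.p6) made up 8.50%, 8.21% and 8.08% of CX3CR1+ rearrangements in A, B and C and 7.26%, 7.36% and 7.48% of CD27hi CX3CR1- rearrangements. The groups did not overlap, and the log2 fold change was 0.16 ± 0.03 (SE, edgeR adjusted p = 0.000272). TCRBV05-01 (Trbv5, chr6:41062359-41062803) made up 5.45%, 5.48% and 5.08% against 4.68%, 4.52% and 4.74%, again without overlap (log2 fold change 0.18 ± 0.04, edgeR adjusted p = 0.00039). TCRBV31-01 (Trbv31, chr6:41557693-41558371), which lies apart from the others at the far end of the locus and is joined by inversion, made up 3.03%, 2.13% and 2.51% against 2.21%, 2.12% and 2.05%. It rose by the largest log2 fold change of the 7, 0.28 ± 0.06 (edgeR adjusted p = 0.000272), but the groups overlapped, and without experiment A the adjusted p was 0.0851.

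The lower V genes moved by similar amounts. TCRBV12-01 (Trbv12-1, chr6:41113567-41114067) made up 7.40%, 7.50% and 8.20% of CX3CR1+ and 8.56%, 8.32% and 8.84% of CD27hi CX3CR1- rearrangements (log2 fold change -0.15 ± 0.03, edgeR adjusted p = 0.00039). The shares of TCRBV14-01 (Trbv14, chr6:41135167-41135616) were 3.48%, 4.19% and 4.11% against 4.23%, 4.45% and 4.34%, those of TCRBV04-01 (Trbv4, chr6:41059443-41059886) 4.15%, 4.17% and 4.09% against 4.52%, 4.47% and 4.52%, and those of TCRBV26-01 (Trbv26, chr6:41227525-41227913) 2.43%, 2.15% and 2.50% against 2.65%, 2.54% and 2.75%. None of these 4 groups overlapped. The last 3 had log2 fold changes of -0.14 ± 0.05, -0.13 ± 0.05 and -0.16 ± 0.06 with edgeR adjusted p of 0.0281, 0.0368 and 0.048. The second gene of the TCRBV12 family, TCRBV12-02, and the 3 genes of the TCRBV13 family did not pass.

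**Figure D3:**
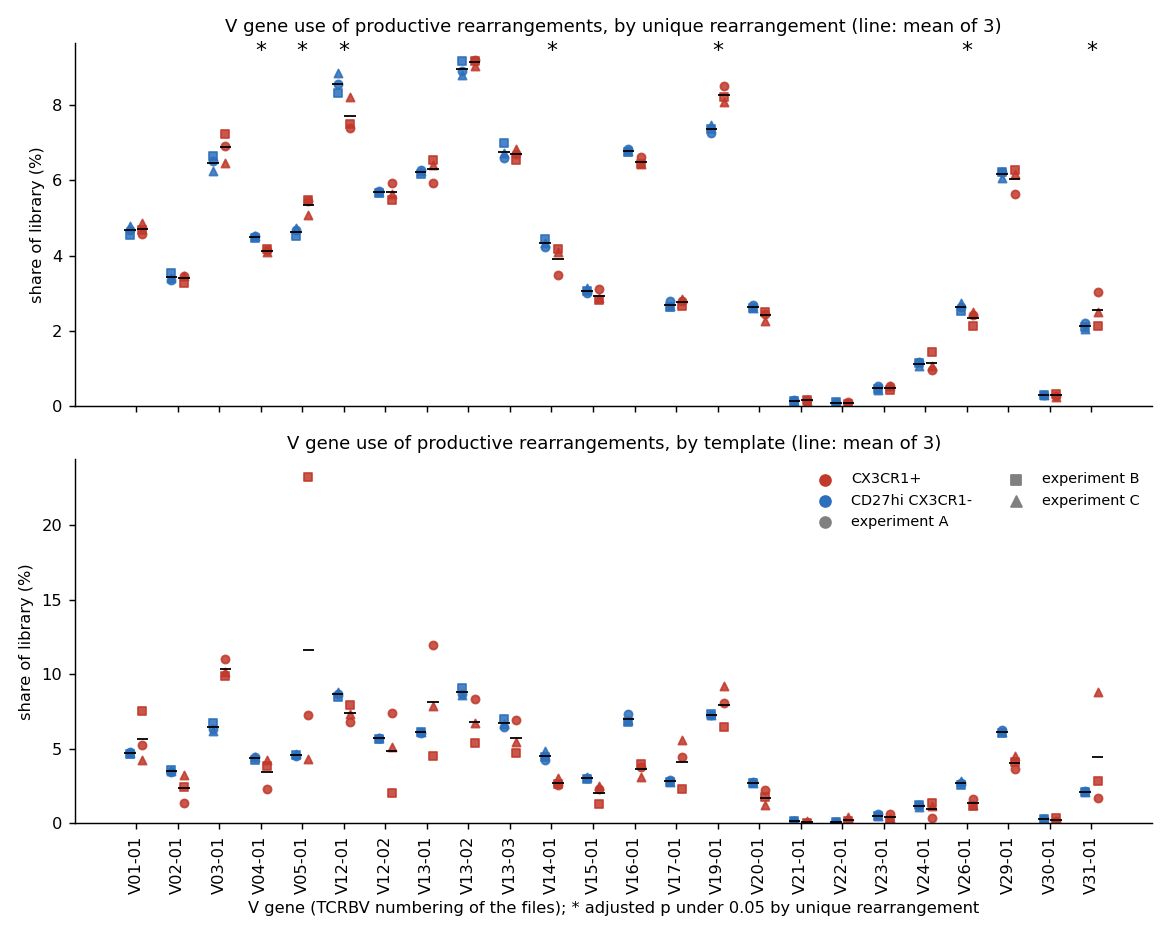
Share of each V gene (percent of the library) in the 3 CX3CR1+ (red) and 3 CD27hi CX3CR1- (blue) libraries, by unique rearrangement above and by template below, with the mean of 3 as a line. By unique rearrangement the 7 marked genes moved by small amounts, while by template the CX3CR1+ libraries scatter widely, up to 23.2% for TCRBV05-01 in experiment B.

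The number of V genes called depended on the test and on the clones counted. DESeq2 called 0 of 24 (1 at an unadjusted p under 0.05). Leaving out an experiment left 3 calls without A, 5 without B and 4 without C, all of them among the 7. Scaling moved the split of the calls, to 4 higher and 1 lower with TMM. No V gene passed among rearrangements with at least 2 templates, where edgeR gave 5 at an unadjusted p under 0.05.

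The same V genes were compared in out-of-frame rearrangements, whose V gene is carried but not used as a receptor. None of 25 V genes (0%) passed edgeR's test there, 0 had an unadjusted p under 0.05 and DESeq2 called 0, although without experiment C 2 passed. TCRBV19-01 made up 7.38%, 6.61% and 6.61% of out-of-frame rearrangements in CX3CR1+ and 7.05%, 6.54% and 6.96% in CD27hi CX3CR1-. The log2 fold changes of the 7 called genes ran from -0.15 to 0.07 out of frame, against -0.16 to 0.28 in frame. A test of whether the shift between subsets differed between reading frames called 0 of 24 (0%) after adjustment by edgeR. There 5 had an unadjusted p under 0.05, with the lowest adjusted p of 0.125 for TCRBV04-01 and TCRBV31-01, so the in-frame shifts were not shown to differ from those out of frame. With TMM scaling this test called 3 genes, and without experiment B it called 2.

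By template, V gene use in CX3CR1+ followed single clones. TCRBV05-01 made up 7.25%, 23.2% and 4.32% of CX3CR1+ templates and 4.50%, 4.55% and 4.61% of CD27hi CX3CR1- templates. One clone, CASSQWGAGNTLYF, held 75.5% of the TCRBV05-01 templates in CX3CR1+ B, and without it the gene was at 5.69%. TCRBV31-01 stood at 1.71%, 2.81% and 8.80% of CX3CR1+ templates, where the clone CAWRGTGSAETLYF held 71.9% of its templates in C (2.47% without it).

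None of the 24 V genes (0%) passed by template with edgeR, 5 had an unadjusted p under 0.05 and the lowest adjusted p was 0.113. DESeq2 also called 0. The groups did not overlap for 11 of the 24, 10 lower and 1 higher in CX3CR1+. TCRBV26-01 stood at 1.63%, 1.17% and 1.22% of CX3CR1+ templates against 2.69%, 2.55% and 2.84%, and TCRBV16-01 at 3.75%, 4.0% and 3.13% against 7.33%, 6.79% and 6.91%. TCRBV03-01 was the higher one, at 11.0%, 9.91% and 10.1% against 6.35%, 6.71% and 6.21% (edgeR adjusted p = 0.151), and without its largest clone in each library it was still at 6.77%, 8.04% and 9.08% in CX3CR1+. Without experiment B or C, 1 V gene passed.

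J gene use by unique rearrangement showed 4 calls of 12 (33.3%) by edgeR, 2 in each direction. TCRBJ02-01 (Trbj2-1, chr6:41542754-41542803) made up 14.0%, 13.6% and 13.3% of CX3CR1+ and 12.4%, 12.2% and 12.5% of CD27hi CX3CR1- rearrangements (log2 fold change 0.13 ± 0.03, edgeR adjusted p = 0.0092). TCRBJ02-03 (Trbj2-3, chr6:41543223-41543271) made up 7.30%, 6.69% and 7.13% against 8.05%, 7.74% and 7.96% (log2 fold change -0.17 ± 0.04, edgeR adjusted p = 0.0092). In both cases the groups did not overlap. Out of frame, TCRBJ02-01 stood at 11.9%, 11.5% and 11.1% against 11.2%, 10.8% and 10.6%, higher in 3 of 3 experiments with overlap. TCRBJ02-03 stood at 9.08%, 8.95% and 7.57% against 8.39%, 8.24% and 8.20% out of frame, higher in CX3CR1+ in 2 of 3. J gene use out of frame was not tested.

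The calls in the first J cluster had overlapping groups. TCRBJ01-03 (Trbj1-3, chr6:41534323-41534372) made up 5.03%, 5.80% and 5.87% against 4.79%, 5.11% and 4.94% (log2 fold change 0.18 ± 0.05, edgeR adjusted p = 0.0142), and TCRBJ01-02 (Trbj1-2, chr6:41534001-41534048) 6.16%, 6.39% and 7.14% against 7.42%, 6.99% and 7.48% (log2 fold change -0.14 ± 0.05, edgeR adjusted p = 0.0332). Each cluster thus held 1 gene that rose and 1 that fell, and the share of the second cluster was 65.5% ± 1.03 in CX3CR1+ and 65.2% ± 0.284 in CD27hi CX3CR1- (SD, n = 3, higher in 2 of 3 experiments, exact sign-flip permutation p = 0.75). No J gene passed without experiment A or without experiment B, and DESeq2 called 0 (0 at an unadjusted p under 0.05).

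The number of templates counted for a rearrangement went with its J gene, also in CD27hi CX3CR1-, where large clones were few. Of the CD27hi CX3CR1- rearrangements with TCRBJ02-07, 29.95% to 35.8% had a single template, against 94.99% to 97.4% of those with TCRBJ02-05. Out-of-frame rearrangements of these libraries gave 34.8% to 39.7% and 96.6% to 97.3%. A minimum of 2 templates therefore removed different shares of each J gene, and with it 9 J genes passed. TCRBJ02-03 passed with its direction turned (log2 fold change 1.33, edgeR adjusted p = 0.00232), and TCRBJ01-02 and TCRBJ01-03 did not pass, at log2 fold changes of 0.0489 and -0.058 (edgeR adjusted p = 0.686 and 0.617). The part of the J gene in the template counts was not tested.

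By template, 0 of 12 J genes (0%) passed edgeR's test, with 2 at an unadjusted p under 0.05, and DESeq2 called 1. TCRBJ01-03 stood at 8.36%, 27.5% and 8.88% of CX3CR1+ templates and 5.45%, 5.95% and 5.39% of CD27hi CX3CR1- templates. In CX3CR1+ B the clone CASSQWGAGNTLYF held 63.8% of them, and 9.98% of the library remained in the gene without it. TCRBJ02-07 was at 24.5%, 22.9% and 23.5% against 30.2%, 30.8% and 31.6%, without overlap, as for 5 of the 12, but with an edgeR adjusted p of 0.176.

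Pairing of V and J genes gave the clearest differences by unique rearrangement. Of 250 V-J pairs tested with edgeR, 8 (3.2%) passed, 4 higher and 4 lower in CX3CR1+, and the groups did not overlap for any of the 8, nor for 40 pairs that did not pass. TCRBV03-01 with TCRBJ01-03 made up 0.602%, 0.895% and 0.639% of CX3CR1+ rearrangements (43, 50 and 73 rearrangements) and 0.343%, 0.400% and 0.308% of CD27hi CX3CR1- rearrangements. This was a log2 fold change of 1.02 ± 0.14 (edgeR adjusted p = 1.96e-10). TCRBV19-01 with TCRBJ02-01 made up 1.60%, 1.66% and 1.41% against 0.947%, 0.993% and 0.991%, a log2 fold change of 0.64 ± 0.09 (edgeR adjusted p = 4.53e-10). These 2 pairs passed under each of the alternatives run for them, DESeq2 and the omission of each experiment included.

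The other 6 pairs moved less or rested on fewer rearrangements. TCRBV05-01 with TCRBJ02-01 made up 0.868%, 0.824% and 0.832% against 0.667%, 0.621% and 0.595%, and TCRBV13-03 with TCRBJ02-01 1.09%, 0.824% and 1.01% against 0.813%, 0.801% and 0.742% (edgeR adjusted p = 0.0133 and 0.0422). The pair TCRBV13-02 with TCRBJ02-03 had the lowest adjusted p of those that fell, at 0.546%, 0.537% and 0.481% against 0.782%, 0.819% and 0.791% (log2 fold change -0.63 ± 0.13, edgeR adjusted p = 0.000162). TCRBV12-01 fell with 2 J genes, TCRBJ02-03 (log2 fold change -0.49 ± 0.13) and TCRBJ01-02 (-0.40 ± 0.12). TCRBV01-01 with TCRBJ01-05 fell by 0.82 ± 0.23 on the log2 scale, on 8, 10 and 19 rearrangements in CX3CR1+. DESeq2 called 2 of 250, and edgeR called 3 without experiment A and 3 without C.

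Out of frame, TCRBV03-01 with TCRBJ01-03 stood at 0.136%, 0.570% and 0.331% in CX3CR1+ and 0.315%, 0.398% and 0.303% in CD27hi CX3CR1-, with overlap. TCRBV19-01 with TCRBJ02-01 stood at 1.05%, 0.965% and 0.905% against 0.858%, 0.796% and 0.692%, without overlap, so this pair was also the more frequent one among rearrangements that encode no receptor. TCRBV13-02 with TCRBJ02-03, which was lower in frame, stood at 0.678%, 0.878% and 0.640% against 0.643%, 0.625% and 0.583%, higher in CX3CR1+ in 3 of 3 experiments with overlap. Of the 8 pairs, 1 had groups that did not overlap out of frame. Whether the pairs' in-frame and out-of-frame shifts differed was not tested.

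**Figure D4:**
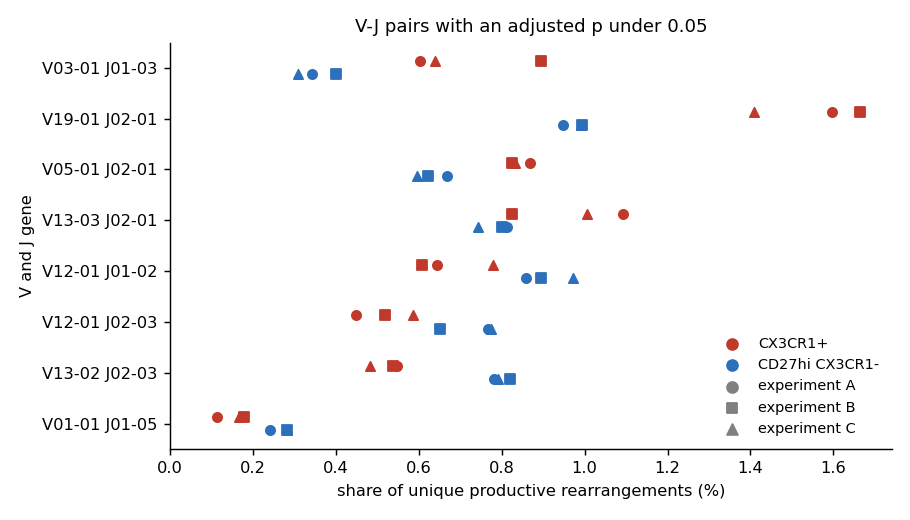
Share of unique productive rearrangements (percent, horizontal axis) of the 8 V-J pairs that passed, in each CX3CR1+ (red) and CD27hi CX3CR1- (blue) library. The 3 red points of a pair lie on 1 side of its 3 blue points, farthest apart in ratio for TCRBV03-01 with TCRBJ01-03.

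By template, 0 of 255 V-J pairs (0%) passed edgeR's test, although 88 had an unadjusted p under 0.05, the lowest adjusted p was 0.0842 and DESeq2 called 21 but gave no adjusted p for 163. TCRBV12-01 with TCRBJ02-05, the pair of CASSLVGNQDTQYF, had nearly the same share in the 3 CX3CR1+ libraries, 3.76%, 4.04% and 3.62%, against 0.822%, 0.773% and 0.786%. By unique rearrangement this pair had a log2 fold change of -0.06 ± 0.11 (edgeR adjusted p = 0.91). TCRBV03-01 with TCRBJ01-03 stood at 1.67%, 2.85% and 4.03% of templates against 0.373%, 0.477% and 0.364%. The groups did not overlap for 128 of the 255 pairs, 7 higher and 121 lower in CX3CR1+. Over all 255 pairs the median log2 fold change was -1.05. TCRBV14-01 with TCRBJ02-03 was among the lower ones, at 0.0234%, 0.0490% and 0.0381% against 0.284%, 0.298% and 0.257%.

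The rearrangements behind the first called pair shared an end of the CDR3. After the pair had been singled out, its CDR3s were read, and 23 of 43, 20 of 50 and 23 of 73 CX3CR1+ rearrangements in A, B and C ended in RRSGNTLYF, where the J gene encodes the last residues and the 2 arginines lie at the joint. In CD27hi CX3CR1- 8 of 146, 7 of 152 and 9 of 168 did. These counts are a description, since the ending was chosen after the values were seen. The following rearrangements are the largest with this ending, and the last line is from the second called pair.
RRSGNTLYF ending, A: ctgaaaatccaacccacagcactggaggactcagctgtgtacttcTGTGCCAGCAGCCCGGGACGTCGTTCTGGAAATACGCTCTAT
RRSGNTLYF ending, B: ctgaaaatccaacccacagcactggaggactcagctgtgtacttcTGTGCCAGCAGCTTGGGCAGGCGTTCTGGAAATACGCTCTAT
RRSGNTLYF ending, C: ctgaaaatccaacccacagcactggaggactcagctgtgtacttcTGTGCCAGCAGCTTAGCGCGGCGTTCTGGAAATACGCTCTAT
RRSGNTLYF ending, C, next: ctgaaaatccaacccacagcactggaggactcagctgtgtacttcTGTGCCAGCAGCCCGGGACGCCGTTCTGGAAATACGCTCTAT
GQNYAEQFF ending, C (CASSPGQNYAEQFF): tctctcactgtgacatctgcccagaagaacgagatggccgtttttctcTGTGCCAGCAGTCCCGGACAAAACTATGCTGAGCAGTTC

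In templates, the RRSGNTLYF ending with TCRBV03-01 and TCRBJ01-03 held 792, 732 and 3995 in CX3CR1+ (1.42%, 1.44% and 3.51% of the library) and 17, 16 and 47 in CD27hi CX3CR1- (0.0315%, 0.0326% and 0.0657%). It was made up of 63 nucleotide rearrangements with 18 CDR3 sequences in the 6 libraries. More than 1 experiment held 5 of the 63, and they carried 2 to 8 N insertions and a median of 5. The ending was thus formed mostly by different rearrangements in each experiment. Its median clone had 6, 13.5 and 24 templates in CX3CR1+, against 2, 1 and 2 templates for the other rearrangements of the pair. In the second pair, TCRBV19-01 with TCRBJ02-01, the ending GQNYAEQFF occurred in 36 of 368 CX3CR1+ and 27 of 1321 CD27hi CX3CR1- rearrangements, and experiment C held 1248 of its 1410 CX3CR1+ templates.

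CDR3 sequences counted by amino acid sequence, over all nucleotide rearrangements that encode them, were tested where they were present in CX3CR1+ or CD27hi CX3CR1- of all 3 experiments with at least 10 templates in all. Of 1432 such public CDR3s, 4 (0.279%) passed edgeR's test by template, all higher in CX3CR1+, while the median log2 fold change over all 1432 was -2.60. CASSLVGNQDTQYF had a log2 fold change of 5.62 ± 0.64 and was encoded by 32 nucleotide rearrangements, 7 of them found in more than 1 experiment. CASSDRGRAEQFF (TCRBV13-03 with TCRBJ02-01) had 1478, 55 and 28 templates in CX3CR1+ and 15, 1 and 0 in CD27hi CX3CR1-. Its log2 fold change was 6.29 ± 1.12 (edgeR adjusted p = 1.47e-05). In C it met the rule of presence through CX3CR1+ alone, the subset where it was higher. Its p-value is therefore a description and not a separate test. None of its 12 nucleotide rearrangements was found in more than 1 experiment.

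The other 2 CDR3s that passed were 15 residues long, used TCRBV03-01 with TCRBJ01-03 and carried the RRSGNTLYF ending. One had 187, 435 and 917 templates in CX3CR1+ and 7, 13 and 11 in CD27hi CX3CR1- (log2 fold change 5.12 ± 1.21, edgeR adjusted p = 0.0114), and the other 302, 44 and 1277 against 8, 1 and 17 (5.34 ± 1.31, edgeR adjusted p = 0.0169). They were encoded by 28 and 21 rearrangements, of which 2 each were found in more than 1 experiment. The count of called CDR3s was 0 without experiment A and 0 without B, and without C it was 4, of which 2 were among those named. It was 1 with TMM scaling and 24 with DESeq2, which gave no adjusted p for 1249 of the 1432.

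The amino acids of the CDR3 were counted without its first 4 and last 4 residues, which the V and J genes mostly encode. A J gene can also encode residues before the last 4, so the shifts in J gene use can enter these counts. Their part was not tested. By unique rearrangement 5 of 20 amino acids (25%) passed edgeR's test. The groups did not overlap for 10 of the 20, these 5 included. Arginine, a basic residue, made up 6.69%, 6.43% and 6.26% of these residues in CX3CR1+ and 5.81%, 5.76% and 5.85% in CD27hi CX3CR1- (log2 fold change 0.15 ± 0.03, edgeR adjusted p = 0.00929). The acidic residues were lower. Aspartic acid was at 8.39%, 8.25% and 8.39% against 8.81%, 8.83% and 8.78% (log2 fold change -0.08 ± 0.01, edgeR adjusted p = 0.00491), and glutamic acid at 4.59%, 4.42% and 4.40% against 4.75%, 4.71% and 4.83% (-0.10 ± 0.02, edgeR adjusted p = 0.0223). Without its first 3 and last 3 residues only, 4 of 20 amino acids passed, and glutamic acid did not (log2 fold change -0.0096, edgeR adjusted p = 0.283).

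Serine fell by 0.07 ± 0.02 on the log2 scale (edgeR adjusted p = 0.0223), and glycine rose by 0.02 (edgeR adjusted p = 0.0227), which was 22.5% ± 0.193 against 22.2% ± 0.0268 of residues (SD, n = 3). Residues of 1 CDR3 are not independent counts. The 5 amino acids still passed without the pair TCRBV03-01 with TCRBJ01-03, an alternative chosen after seeing the data, and arginine then had a log2 fold change of 0.13 (edgeR adjusted p = 0.0234). Without experiment C no amino acid passed (arginine 0.18, edgeR adjusted p = 0.078), and DESeq2 called 0 (1 at an unadjusted p under 0.05).

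The number of templates of a rearrangement went with this composition in CX3CR1+. It also went with the J gene there. A single template was counted for 26.7% to 37.7% of CX3CR1+ rearrangements with TCRBJ02-07 and 70.2% to 78.0% of those with TCRBJ02-05. The template classes here and below thus differ in J gene use, and the parts of clone size and J gene were not tested. Arginine made up 6.49%, 6.14% and 6.01% of residues in CX3CR1+ rearrangements with 1 template, 6.79%, 6.49% and 6.37% in those with 2 to 9, and 7.67%, 8.09% and 7.46% in those with 10 or more. Aspartic acid went the other way, from 8.97%, 8.62% and 8.77% to 7.18%, 6.97% and 7.33%. Rearrangements with 1 template in CD27hi CX3CR1- had 5.75%, 5.69% and 5.78% arginine, below CX3CR1+ rearrangements with 1 template in 3 of 3 experiments. Both acidic residues were also higher at 1 template in CD27hi CX3CR1-. Aspartic acid was at 9.04%, 9.05% and 8.97% there against 8.81%, 8.83% and 8.78% over all its rearrangements, and glutamic acid at 5.15%, 5.08% and 5.24% against 4.75%, 4.71% and 4.83%. Serine did not follow clone size in this way, and glutamic acid was at 4.49%, 3.99% and 3.52% in clones of 10 or more.

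**Figure D5:**
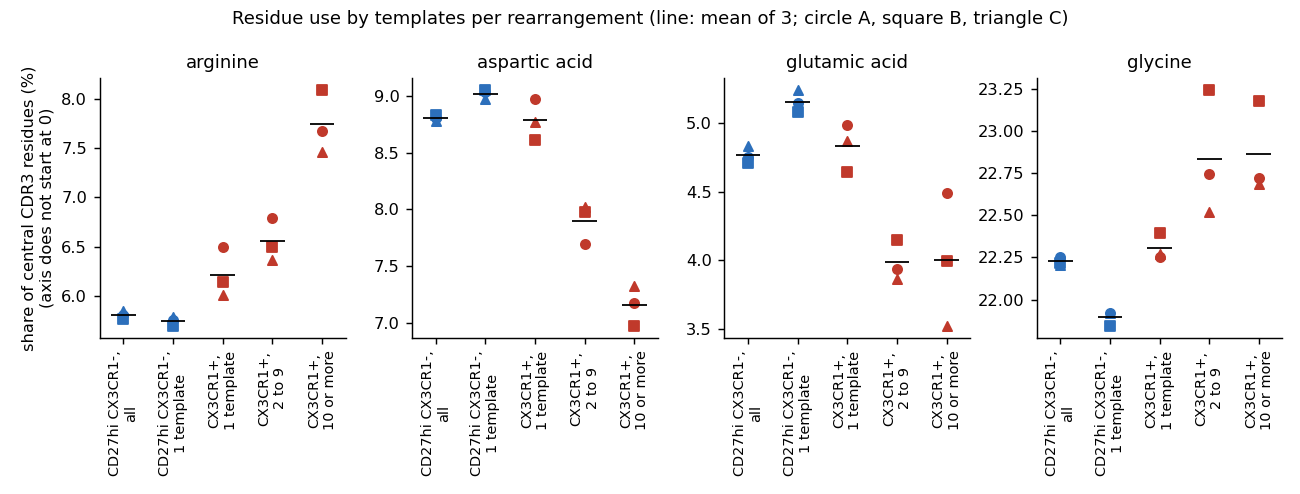
Share of 4 amino acids (percent of central CDR3 residues, axes not starting at 0) in CD27hi CX3CR1- (blue) and CX3CR1+ (red) rearrangements by templates per rearrangement, with the mean of 3 as a line. Arginine is highest, up to 8.09%, and aspartic acid lowest, down to 6.97%, in CX3CR1+ rearrangements with 10 or more templates.

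For the first 2 called pairs, use was higher in CX3CR1+ rearrangements with 10 or more templates than in those with 1. TCRBV03-01 with TCRBJ01-03 made up 0.321%, 0.640% and 0.409% of CX3CR1+ rearrangements with 1 template and 2.21%, 3.31% and 2.14% of those with 10 or more. TCRBV19-01 with TCRBJ02-01 went from 1.36%, 1.5% and 1.48% to 3.58%, 1.95% and 3.12%, by way of 1.52%, 1.85% and 0.865% at 2 to 9 templates. The other called pairs that were higher in CX3CR1+ did not share this. TCRBV05-01 with TCRBJ02-01 went from 1.01%, 0.961% and 0.898% to 0.681%, 0.585% and 0.877%, and TCRBV13-03 with TCRBJ02-01 from 1.26%, 1.18% and 1.10% to 1.19%, 0.390% and 1.17%. TCRBV05-01 as a whole was at 6.07%, 5.54% and 5.87% of rearrangements with 1 template and 4.93%, 4.87% and 5.35% of those with 10 or more.

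By template, 0 of 20 amino acids (0%) passed edgeR's test, 4 had an unadjusted p under 0.05, DESeq2 called 2, and without experiment C edgeR called 1. Methionine had the lowest edgeR adjusted p, 0.0545, at 0.121%, 0.152% and 0.170% against 0.237%, 0.25% and 0.253%. Arginine stood at 8.08%, 7.09% and 7.27% against 5.83%, 5.79% and 5.88% (edgeR adjusted p = 0.21). Hydrophobic residues as a class made up 20.7% ± 0.123 by unique rearrangement in CX3CR1+ and 20.5% ± 0.0412 in CD27hi CX3CR1-, higher in 3 of 3 experiments (exact sign-flip permutation p = 0.25). By template they made up 20.2%, 22.4% and 19.2% against 20.3%, 20.4% and 20.3%, higher in CX3CR1+ in 1 of 3 experiments.

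CDR3 length and N insertions were close in both subsets. Mean length was 13.91, 13.93 and 13.93 residues in CX3CR1+ and 13.93, 13.94 and 13.95 in CD27hi CX3CR1- by unique rearrangement, a difference of -0.0149 ± 0.00996 (SD, n = 3, lower in 3 of 3 experiments, exact sign-flip permutation p = 0.25). None of 12 lengths tested with edgeR (0%) passed, 2 had an unadjusted p under 0.05, and DESeq2 called 0. Rearrangements carried 3.49 ± 0.0310 N insertions in CX3CR1+ and 3.47 ± 0.05 in CD27hi CX3CR1-. Rearrangements without N insertions made up 9.18%, 9.71% and 9.07% of unique CX3CR1+ rearrangements and 9.15%, 9.36% and 8.46% of those in CD27hi CX3CR1-, higher in 3 of 3 experiments by 0.331 ± 0.285 percentage points (SD, n = 3, exact sign-flip permutation p = 0.25). The direction was the opposite by template, where they made up 7.42%, 8.48% and 7.79% of CX3CR1+ and 9.70%, 9.96% and 9.24% of CD27hi CX3CR1-, lower in 3 of 3 experiments by 1.74 ± 0.467 percentage points (SD, n = 3, exact sign-flip permutation p = 0.25, the smallest possible).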

How the data were processed

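TCRβ libraries had been prepared by the authors from genomic DNA with the ImmunoSEQ assay. The authors deposited, per rearrangement, whole-number template counts without normalization, together with other columns (sequence, CDR3, V and J calls, reading frame, insertions), used as given. The submitters' processing notes name mm10. Coordinates come from RefSeq's GRCm38.p6 table, where 24 of 24 V and 12 of 12 J genes matched by number. Rearrangements without a V or J name were 0.0805% to 0.279% of each library and were left out of the corresponding counts. V, J, V-J, amino acid and length counts of at least 10 in 3 libraries, and public CDR3s with at least 10 templates in all, were tested with edgeR 4.0.16 (quasi-likelihood test, R 4.3.3, threshold 0.05), scaled to library totals. The experiment was a block, because the study treats experiments as repeated measures and subsets of an experiment came from the same mice. Deviations of V shares from group means correlated at 0.0728, 0.289 and 0.523 between the libraries of A, B and C. Single values were tested by exact sign flips. Equal-depth values are means of 20 draws.

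Alternatives were TMM, DESeq2 1.42.0, no filter, no block, template minimums, equal depth, other residue limits and leaving out each experiment. Dropping shared clones, 1 V-J pair or TCRBJ02-07 was added after seeing the data. Named features are all V genes, J genes, amino acids and public CDR3s that passed, and up to 5 V-J pairs per direction. Where nothing passed, features with the lowest p-values are named. Of the 5 largest clones per library, only some are named. Members and lists were chosen with earlier results of these data known. Scripts were tested on simulated data and ran in Python 3.11.15 with numpy 2.4.6, pandas 2.3.3, scipy 1.17.1 and matplotlib 3.10.9. CDR3s longer than 14 residues are given by their genes or ending.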

Additional observations from a re-analysis of the deposited data

Results flagged for a closer look

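Out-of-frame rearrangements, which lie outside the productive repertoire, were also dominated by few clones in CX3CR1+. The 100 most abundant held 64.0%, 76.3% and 74.7% of out-of-frame templates in experiments A, B and C (mean 71.7% ± 6.67, SD, n = 3), against 2.02%, 2.15% and 1.73% in CD27hi CX3CR1- (1.97% ± 0.211). They drew attention as a signal in data that the comparisons of productive rearrangements do not use, above the level in the other subset. Single out-of-frame rearrangements held 28.9% and 25.8% of these templates in CX3CR1+ B and C. The 100 were taken from 2954, 2283 and 4538 out-of-frame rearrangements in CX3CR1+ and from 15873, 14579 and 21134 in CD27hi CX3CR1-. In CD8+ tumor-infiltrating lymphocytes the 100 most abundant of 627, 683 and 1037 held 64.4%, 81.4% and 79.9%, so this was not particular to CX3CR1+.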

How the results depend on the processing

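Over all alternatives, 133 values recomputed for whole comparisons kept a similar number of calls, whichever features were called, or stayed within the spread. Another 20 gained calls, 21 lost calls and 10 moved. For single features that had passed, 179 recomputed values kept their direction and side of the threshold. A further 113 kept the direction but did not pass, and 15 turned. By unique rearrangement, DESeq2 lowered the calls to 0 V genes, 0 J genes, 2 V-J pairs and 0 amino acids. Without clones found in both subsets of an experiment (chosen after seeing the data), 4 V genes and 4 V-J pairs passed. At equal depth 3 V-J pairs passed. The split of V gene calls, 3 higher and 4 lower, was 4 and 1 with TMM or without a filter, and 4 and 3 at equal depth. By template, TMM gave 1 J gene and 1 public CDR3, and DESeq2 gave 1 J gene, 21 V-J pairs, 2 amino acids and 24 public CDR3s. In the test between reading frames, which counts unique rearrangements, TMM gave 3 V genes.

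Without the replicate block, 5 V genes, 2 J genes, 57 V-J pairs (2 higher, 55 lower), 2 amino acids and 375 public CDR3s (20 higher, 355 lower) passed by template, and 2 J genes by unique rearrangement.

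A minimum of 2 templates gave 0 V genes, 9 J genes, 76 V-J pairs, 10 amino acids and 7 lengths. It turned the log2 fold changes of TCRBJ01-02 to 0.0489, TCRBJ01-03 to -0.058, TCRBJ02-03 to 1.33, TCRBV12-01 with TCRBJ02-03 to 0.91, TCRBV13-02 with TCRBJ02-03 to 0.46, glutamic acid to 0.17 and glycine to -0.030. With it the differences in single values moved to 0.241 residues in CDR3 length (0.274 by template), 0.0927 N insertions, -0.347 percentage points without N insertions, turned from 0.331 (-3.22 by template), -5.40 for the second J cluster, 0.819 for hydrophobic residues, 46.1 for templates in shared clones and -8537 rearrangements at equal depth. Without a template minimum, the difference at equal depth was -33136 for rearrangements and -28278 for unique CDR3 amino acid sequences. A minimum of 10 templates left 15, 11 and 14 rearrangements in the CD27hi CX3CR1- libraries, with 0 V genes and 0 J genes passing and log2 fold changes turned to 6.65 (TCRBV04-01), -0.56 (TCRBV05-01), 6.93 (TCRBV14-01), 5.81 (TCRBV26-01), -0.58 (TCRBV31-01), 0.27 (TCRBJ01-02), -0.64 (TCRBJ01-03) and 0.24 (TCRBJ02-03). The cause was not tested.

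Leaving out 1 experiment gave 3 to 5 V genes, 0 to 3 J genes, 3 to 8 V-J pairs and 0 to 5 amino acids by unique rearrangement, and by template 0 to 1 V genes, 0 to 1 amino acids and 0 to 4 public CDR3s. It gave 0 to 2 out-of-frame V genes, and 0 to 2 in the test between reading frames. Single clones of large size and the 3-template limit bound what the template counts of CD27hi CX3CR1- can show.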

Other observations

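The CDR3 ending RRSGNTLYF with TCRBV03-01 and TCRBJ01-03 was also found in the other libraries of the series. It held 0.0599%, 0.105% and 0.134% of templates in CD27lo CX3CR1- splenic CD8+ T cells of experiments A, B and C, and 0.0339%, 0.969% and 0.501% in CD8+ tumor-infiltrating lymphocytes, where it made up 2 of 3, 13 of 16 and 10 of 18 rearrangements of that pair. The value in the tumor of experiment A rests on 2 templates. The ending GQNYAEQFF with TCRBV19-01 and TCRBJ02-01 held 1.61%, 0.218% and 3.04% of templates in the tumor and 0.0109%, 0.0825% and 0.111% in CD27lo CX3CR1-. Both endings were chosen after seeing the data, and no test was made.

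Between experiments, CX3CR1+ libraries shared 69 to 90 nucleotide rearrangements with each other, 1.23% to 1.29% of the smaller library, and CD27hi CX3CR1- libraries shared 844 to 1234, 2.22% to 2.90%. Depth and the number of clones differ between these libraries, and no test was made.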
